A study of Mus musculus with 6 samples.

Results

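The genes described here encode the proteins of the cytosolic ribosome, measured in cultured mouse melanoma cells of the genotypes sgControl and sgNDUFS4. Members were the gene rows of the deposited table whose symbol is Rps or Rpl with a number and at most 1 closing letter (a, x, y or l), together with Rplp0, Rplp1, Rplp2 and Rpsa. Rows ending in -ps, which name pseudogenes, were left out, and there were 9 of them. This gave 80 of 22535 gene rows, 31 for proteins of the small (40S) subunit and 49 for proteins of the large (60S) subunit. The rule reads only symbols, so genes such as Rack1, Fau, Rps3a1, Rpl22l1, Rpl36al and Rpl7l1, which also encode ribosomal proteins or relatives of them, fall outside it.

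The cells were B16-BL6, an established mouse melanoma line, grown in DMEM with 10% FBS, 1 mM sodium pyruvate and 1% pen-strep. The 2 groups are labelled by genotype as sgControl and sgNDUFS4, with 3 polyA RNA libraries each, and both had the same medium and no other treatment in the labels. Ndufs4 encodes an accessory subunit of mitochondrial respiratory complex I. The study set the groups side by side to find expression changes that go with the immunogenicity of the sgNDUFS4 cells. The labels give neither the guide sequence nor whether a group is 1 clone or a pool, nor whether the libraries of a group are separate cultures. The tests thus rest on variation among libraries that may be technical only, and genotype cannot be told apart from other differences between the 2 cell populations.

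Ribosomal proteins are made in equal proportions to assemble with ribosomal RNA, and unassembled copies are degraded. Their mRNAs are among the most abundant of growing cells and begin with a terminal oligopyrimidine (TOP) tract, through which mTOR signalling and the repressor Larp1 set their translation together. Their genes are scattered over most chromosomes.

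The targeted gene was measured first. Ndufs4 stood at 54.3, 55.0 and 52.4 CPM in sgControl against 15.0, 15.98 and 16.8 CPM in sgNDUFS4, where CPM is the deposited read count of a gene scaled to the size of its library. The log2 fold change of sgNDUFS4 over sgControl was -1.73 (SE 0.076). Libraries held 20090607 to 25947374 reads counted in genes. All 7 melanocyte-lineage markers were above 1 CPM in both groups, with a summed level of 15409 to 15927 CPM in sgControl and 14508 to 15533 CPM in sgNDUFS4. The 3 endothelial markers were at 0 throughout. Leukocyte markers summed to between 1.61 and 2.34 CPM in sgControl and between 0.308 and 3.14 CPM in sgNDUFS4, and epithelial markers to between 1.17 and 6.27 CPM and between 0.308 and 1.13 CPM. Fibroblast markers summed to 41.8 to 44.1 CPM in sgControl and 41.4 to 46.1 CPM in sgNDUFS4, with Dcn under 1 CPM.

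Ribosomal protein genes moved in both directions and by small amounts. Of the 80 members, 77 passed a filter on low values (mean over the libraries of 1 CPM or more). Of these 77, 26 rose, 15 fell and 36 did not pass the test, which was limma on log2(CPM + 0.5) at an adjusted p of 0.05, with the Benjamini-Hochberg method applied across 11063 genes. Among all genes tested, 31.8% were called higher and 20.3% lower, so 52.0% were called in either direction, which is close to the members' own share. Of the 2062 other genes with a mean of 100 CPM or more, a larger share was called, with 709 higher and 700 lower. The median log2 fold change was 0.04 over the members, 0.06 over all genes tested and 0.002 over those 2062 genes. Single members ranged from -0.82 (Rpl10) to 0.52 (Rps23), and 0 of 77 reached a 2-fold change in either direction. Such a change was seen in 3.85% of all genes tested and in 0.970% of the 2062 other genes with a mean of 100 CPM or more. The libraries of the groups did not overlap, with sgNDUFS4 above, for 24 members and, with sgNDUFS4 below, for 17. Over all genes tested these shares were 35.0% and 22.2%, or 57.2% in either direction. Of the 2062 other genes at 100 CPM or more, 739 lay above and 747 below without overlap. A level in such bulk libraries cannot tell fewer cells from less RNA per cell.

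The split between rises and falls turned with the library scaling. With TMM scaling, which sets the libraries to a common level by their less variable genes, 13 members were higher and 25 lower, with a median of -0.02. TMM called 24.9% of all genes higher and 25.8% lower, 50.7% in all. On recovered reads edgeR called 13 members higher and 25 lower (50.5% of all genes in either direction) and DESeq2 12 and 26 (48.5%), while limma without its mean-variance trend called 13 and 9 (44.5%). Quantile normalization, which gives every library the same distribution of values, moved the split the other way: 36 members were higher and 10 lower, with a median of 0.07, while 26.1% of all genes were higher and 23.3% lower (49.4% in all). All 13 members called higher under TMM and 15 of the 25 called lower had the same call on the deposited scale. The median of all genes tested moved from 0.06 to 0.00 with TMM scaling, so for members with small changes the direction relative to 0 depends on the scale.

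**Figure D1:**
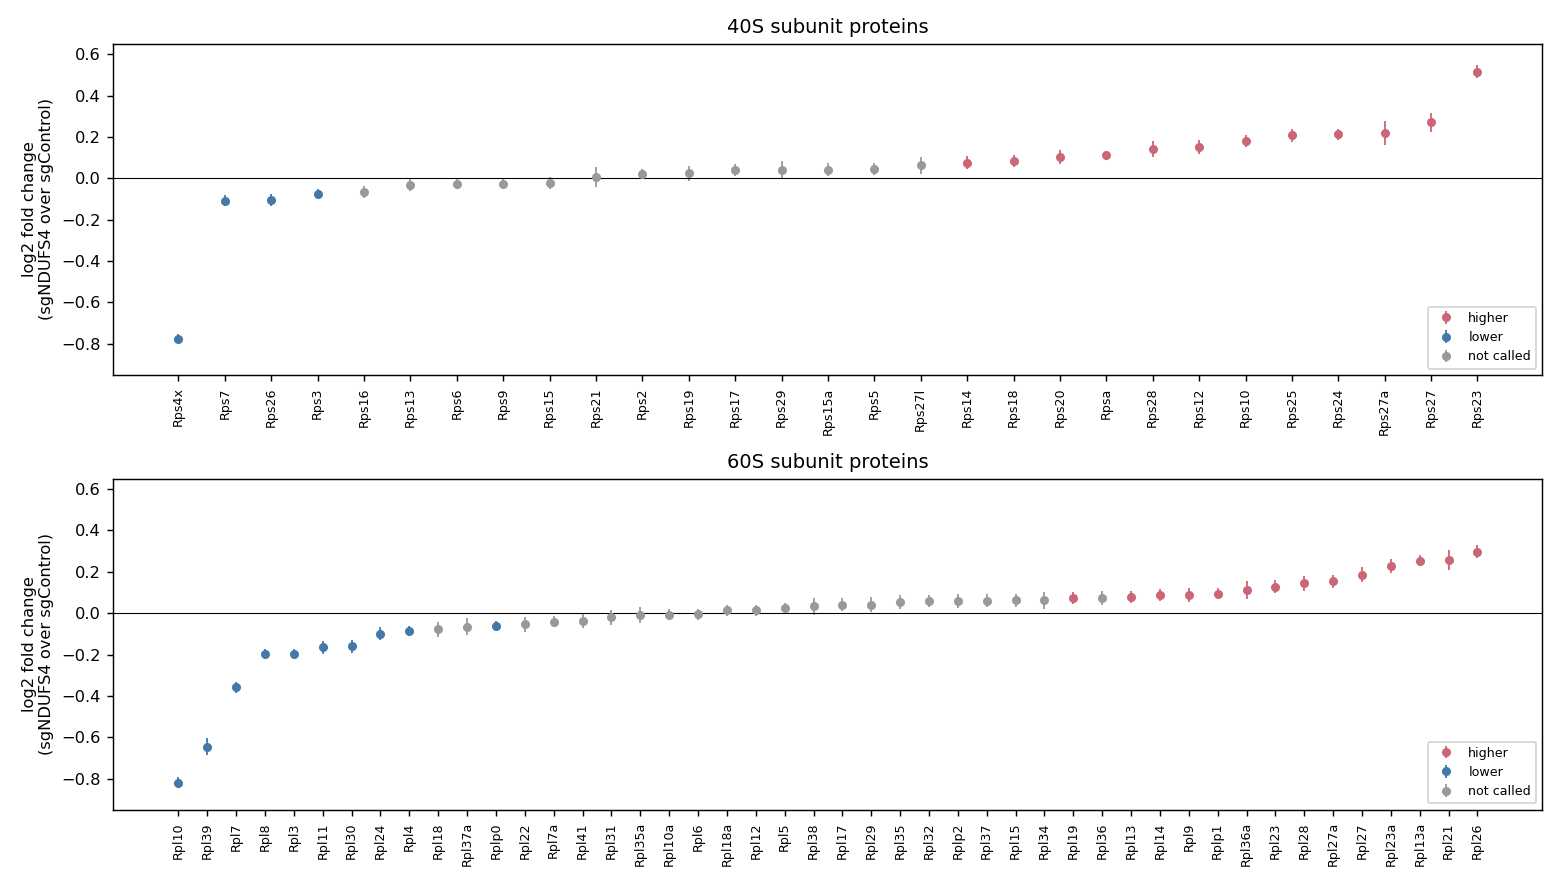
Log2 fold change (sgNDUFS4 over sgControl, vertical axis) of 75 of the 77 members tested, sorted within the 40S and the 60S subunit; points are limma estimates, bars 1 SE and colours the call. Most members lie close to 0, Rps4x, Rpl10 and Rpl39 lie far below, and Rps23 lies highest at 0.52.

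Rises and falls occurred in both subunits. Of 31 proteins of the 40S subunit 12 rose and 5 fell, with a median log2 fold change of 0.04. Of the 46 tested proteins of the 60S subunit 14 rose and 10 fell, also with a median of 0.04. Over all genes tested, 31.8% were called higher and 20.3% lower, and the difference between the subunits was not tested. Summed over all members, the libraries held 61690, 63767 and 61772 CPM in sgControl against 61860, 62767 and 60980.2 CPM in sgNDUFS4. The groups overlapped: ribosomal protein mRNAs took 6.24% of the counted reads in sgControl and 6.19% in sgNDUFS4. Rps2, at the mRNA entry channel of the 40S subunit, is with Rpl8, Rpl13a, Rpl3 and Rplp0 among the 5 members with the highest CPM, a scale not adjusted for transcript length. It had 1994, 1986 and 1918 CPM in sgControl against 1966, 2017 and 1999.7 CPM in sgNDUFS4, and the log2 fold change of 0.02 (SE 0.024, adjusted p = 0.494, limma) did not pass the test. For the sum, the difference of group means was -0.865% of the sgControl level on the deposited scale and -4.84% with TMM scaling.

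The 3 members that fell most all lie on chromosome X. Rps4x (chrX:102184941-102189394, minus strand, GRCm38, as are all positions given here), which encodes a protein of the 40S body, had 1694, 1718 and 1738 CPM in sgControl against 1014, 998 and 992 CPM in sgNDUFS4. Rpl10 (chrX:74270812-74273135, plus strand), whose protein joins the 60S subunit late and lies next to the peptidyl transferase centre, had 1013, 1009 and 1047 CPM in sgControl against 581, 581 and 577 CPM in sgNDUFS4. Rpl39 (chrX:37082520-37085402, minus strand), which encodes a small protein lining the exit tunnel for the growing chain, had 168, 176 and 172 CPM against 106, 114 and 109.8 CPM. For each of the 3 genes every sgNDUFS4 library lay far below every sgControl library. The log2 fold changes were -0.78 for Rps4x (SE 0.025, adjusted p = 6.44e-19, limma), -0.82 for Rpl10 (SE 0.027, adjusted p = 1.35e-18, limma) and -0.64 for Rpl39 (SE 0.043, adjusted p = 2.01e-12, limma). Their summed level went from 2912 ± 41.5 to 1691 ± 10.7 CPM (SD, n = 3 each), while that of the other members was 59498 ± 1183 CPM in sgControl and 60179 ± 887 CPM in sgNDUFS4, a difference of 1.14%.

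The fourth member on chromosome X did not follow them. Rpl36a (chrX:134585654-134588062, plus strand), whose protein sits near the exit site for transfer RNA, had 129.6, 125 and 130.1 CPM in sgControl against 134, 146 and 136 CPM in sgNDUFS4. The groups did not overlap, but the difference was small, with a log2 fold change of 0.11 (SE 0.043, adjusted p = 0.0336, limma). That call was lost with TMM scaling (log2 fold change 0.05, adjusted p = 0.332, limma) and without sgControl library 1, sgControl library 2 or sgNDUFS4 library 2.

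To set beside one another genes of chromosome X that fell and one that did not, and genes elsewhere that rose, the 100 bases before the RefSeq start of 5 members are printed here from GRCm38.p6, 5′ to 3′ on the strand of the gene. Rps4x (chrX:102189392-102189491) and Rpl10 (chrX:74270716-74270815) fell, Rpl36a (chrX:134585554-134585653) did not, and Rpl26 (chr11:68901466-68901565) and Rpl13a (chr7:45128746-45128845) rose. Capitals mark matches, on either strand, to the motifs named in the next paragraph.
Rps4x: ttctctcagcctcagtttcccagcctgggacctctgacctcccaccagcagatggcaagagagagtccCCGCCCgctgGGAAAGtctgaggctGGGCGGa
Rpl10: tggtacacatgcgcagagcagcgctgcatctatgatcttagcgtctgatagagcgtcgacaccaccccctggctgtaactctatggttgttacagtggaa
Rpl36a: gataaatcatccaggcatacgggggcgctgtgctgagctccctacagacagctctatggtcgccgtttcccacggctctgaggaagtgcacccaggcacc
Rpl26: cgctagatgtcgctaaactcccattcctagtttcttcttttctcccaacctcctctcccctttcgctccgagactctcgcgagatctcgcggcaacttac
Rpl13a: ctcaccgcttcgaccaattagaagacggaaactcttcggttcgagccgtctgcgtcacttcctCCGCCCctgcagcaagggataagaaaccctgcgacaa

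The search covered 5 short motifs on both strands; none contains another, and adjacent matches can share bases. RefSeq gave a window from 250 bases before to 50 after the start for 60 of the 80 members and for 27025 genes in all. The core bound by GABP and other ETS factors, CGGAAG, occurred in the 300-base window of 41 of the 60 members (68.3%) and of 18.8% of all genes. A GC box, GGGCGG, was found in 60.0% of members and 38.2% of all genes. The core bound by YY1, ATGGCG, was found in 31.7% and 10.2%. A pyrimidine run, CTTTCC, was found in 53.3% and 29.3%. A TATA box, TATAAA, was found in 10.0% of members and 15.7% of all genes. The GABP core was present in 12 of 20 members that rose, 8 of 10 that fell and 20 of 27 that were not called, so it occurred in members of every call. In the same order the counts were 11, 4 and 20 for the GC box and 8, 1 and 8 for the YY1 core. They were 10, 5 and 15 for the pyrimidine run and 2, 2 and 2 for the TATA box. Differences in motifs between the calls were not tested. In the 100-base stretches printed, Rps4x carried 2 GC boxes and 1 pyrimidine run, Rpl13a carried 1 GC box, and Rpl10, Rpl36a and Rpl26 carried none of the 5.

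**Figure D2:**
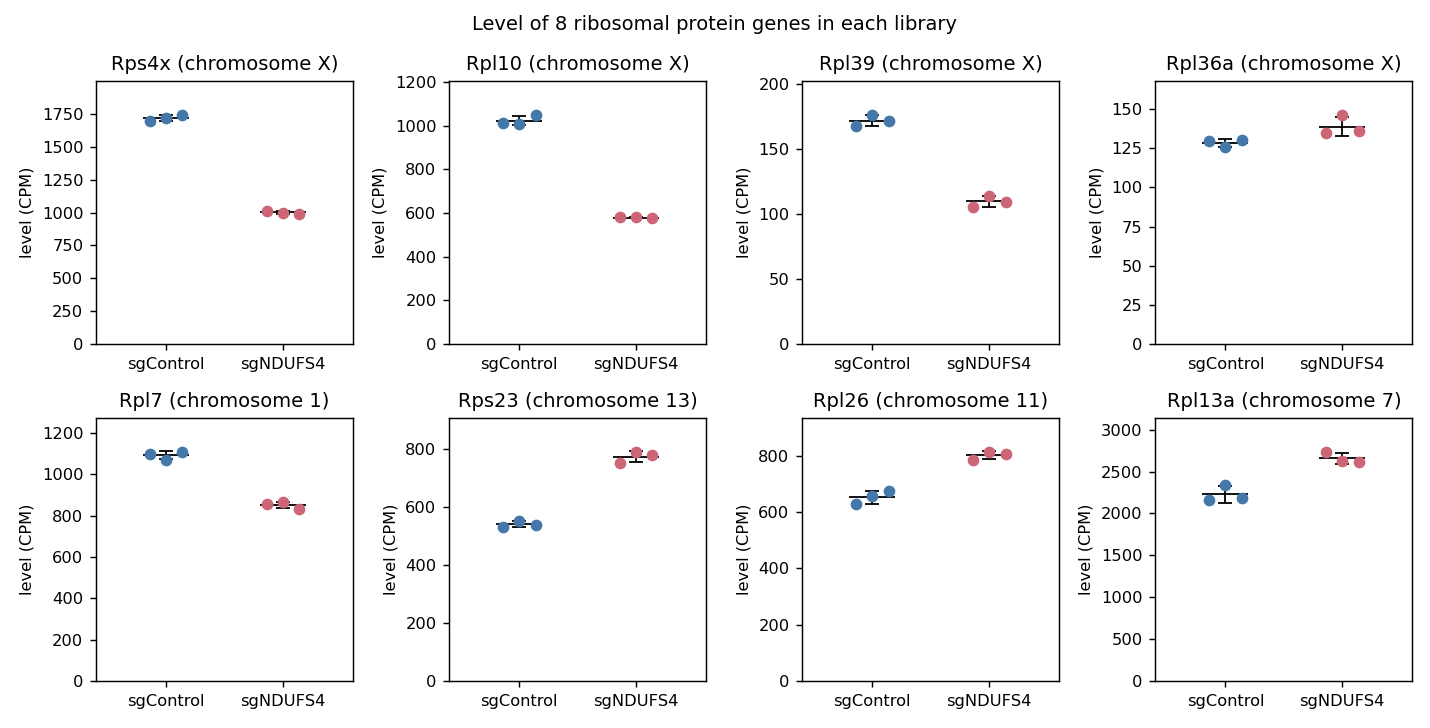
Level in CPM (vertical axis, starting at 0) of 8 members in each of the 3 sgControl and 3 sgNDUFS4 libraries; points are libraries, the wide mark is the group mean and the bar 1 SD. Rps4x, Rpl10, Rpl39 and Rpl7 are lower in every sgNDUFS4 library, Rps23, Rpl26 and Rpl13a are higher in each, and the groups of Rpl36a lie close together.

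The members' changes went along with those of the genes around them. For each member the 50 nearest tested genes on its chromosome that are no members were taken as its neighbours. Around Rpl10 the median log2 fold change of these neighbours was -0.88, and 2 of 50 lay above 0. Around Rps4x it was -0.99 (5 of 50 above 0) and around Rpl39 -0.79 (1 of 50). Around Rpl36a it was 0.21, with 38 of 50 neighbours above 0. Over all tested genes of chromosome X that are no members the median was -0.61.

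Members that rose on chromosomes 13 and 3 lay among neighbours with medians above 0. Rps23 (chr13:90922958-90924950, plus strand), whose protein forms part of the decoding centre of the 40S subunit, had 532, 552 and 537 CPM in sgControl against 751, 789 and 779.96 CPM in sgNDUFS4. Every sgNDUFS4 library lay above every sgControl library, and the log2 fold change was 0.52 (SE 0.029, adjusted p = 8.47e-14, limma). Its neighbours on chromosome 13 had a median of 0.37, with 45 of 50 above 0. Rps27 (chr3:90212522-90213651, minus strand), a zinc-binding protein of the 40S subunit, had 182, 185 and 163 CPM in sgControl against 208, 222 and 209 CPM in sgNDUFS4. It rose by a log2 fold change of 0.27 (SE 0.044, adjusted p = 1.37e-05, limma) without overlap of the groups, and its neighbours had a median of 0.36 (43 of 50 above 0). Regional centring, described below, subtracts in each library the median deviation of the 50 nearest tested genes, which can include other members. With this centring the value was -0.07 and the call was lost (adjusted p = 0.31, limma). Rps3a1, another 40S gene of chromosome 3 that the symbol rule leaves out, went from 1729 ± 28.8 to 2188 ± 27.2 CPM (SD, n = 3 each), with a log2 fold change of 0.34 (SE 0.024, adjusted p = 8.61e-12, limma). With the same centring this became 0.08 and did not pass the test (adjusted p = 0.0575, limma).

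On chromosome 15, 3 of 4 members fell, while 20.3% of all genes tested were called lower. Rpl8 (chr15:76904078-76906314, plus strand) and Rpl3 (chr15:80077791-80091868, minus strand) encode proteins that reach towards the peptidyl transferase centre. Rpl8 had 2686, 2761 and 2617 CPM in sgControl against 2343, 2376 and 2305 CPM in sgNDUFS4. Rpl3 had 2404, 2386 and 2348 CPM in sgControl against 2099, 2063 and 2059 CPM in sgNDUFS4. In both genes all sgNDUFS4 libraries were below all sgControl libraries, and both log2 fold changes were -0.20 (SE 0.025, adjusted p = 2.07e-07 for Rpl8 and SE 0.023, adjusted p = 9.16e-08 for Rpl3, limma). Rpl30, on the same chromosome, went from 552 ± 20.03 to 494 ± 15.8 CPM (SD, n = 3 each), a log2 fold change of -0.16 (adjusted p = 0.000188, limma). With regional centring all 3 calls were lost, with values of 0.02 for Rpl8 (adjusted p = 0.58), -0.02 for Rpl3 (adjusted p = 0.581) and -0.06 for Rpl30 (adjusted p = 0.188, limma). The median over the 4 tested members of chromosome 15 was -0.18, and over its 426 other tested genes -0.13. There 1 of the 4 members and 140 of the 426 other genes lay above 0. On chromosome 11, 6 of 7 members rose, while 31.8% of all genes tested were called higher. The median was 0.19 for the members and 0.13 for the 887 other genes. All 7 members and 628 of the 887 other genes lay above 0.

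Across the 77 members the log2 fold change and the neighbours' median had a Pearson correlation of 0.88 and a Spearman correlation of 0.69, and 61 of 77 pairs had the same sign. Members are not independent points here: they come from the same libraries, and neighbouring members such as Rpl41 and Rps26, or Rpl13a and Rpl18, share neighbours. Without Rpl10, Rps4x and Rpl39 the Pearson correlation was 0.68 (n = 74), and also without Rps23 it was 0.63 (n = 73). Over 10819 other genes tested, whose neighbours can include members, the correlation was 0.37, and over the 2035 of them at 100 CPM or more it was 0.53. These values are descriptions across genes, and what links a gene to its neighbourhood was not tested. Genomic DNA was not analysed here. For members on chromosomes with a shifted median, such as Rps4x, Rpl10, Rpl39 and Rps23, a difference in chromosome copy number between the 2 cell populations therefore cannot be told apart from a change in transcription.

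**Figure D3:**
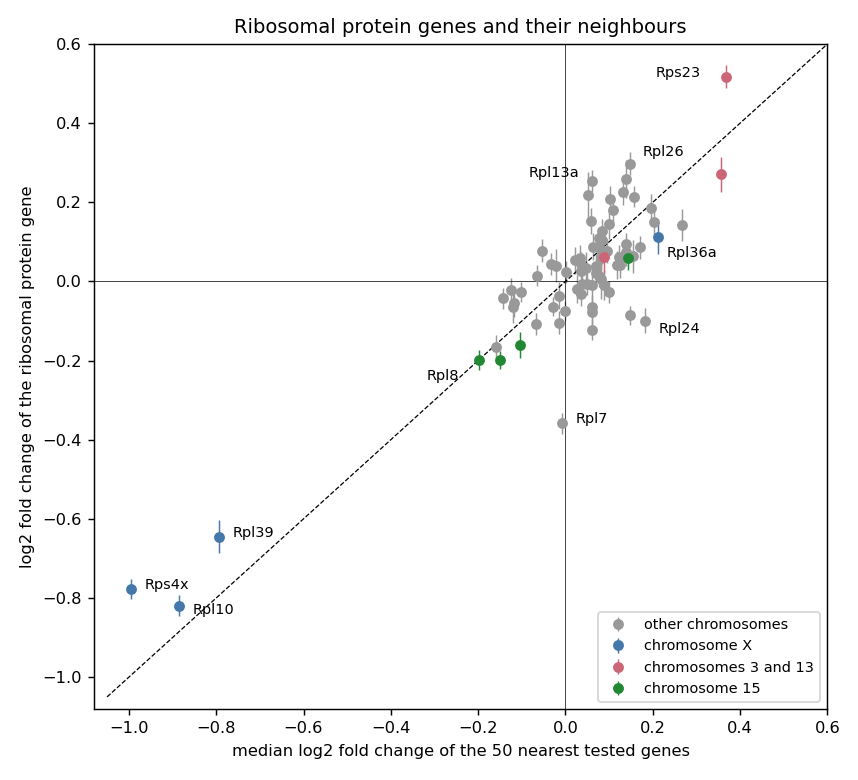
Log2 fold change of each of the 77 members (vertical axis, bars 1 SE) against the median log2 fold change of its 50 nearest tested non-member genes (horizontal axis), coloured by chromosome; the dashed line marks equal values. Rps4x, Rpl10 and Rpl39 lie at the lower left, just above the line, and Rps23 at the upper right, while Rpl7 lies at -0.36 with neighbours near 0.

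Regional centring subtracts from each gene, in each library, the median deviation of its 50 nearest tested genes. These can include other members, unlike the neighbours whose medians are given above. The same test is then run again. With regional centring 14 members were higher and 11 lower. Over all 10896 genes that could be centred 21.2% were higher and 22.4% lower, 43.6% in all. Of the 2035 other genes at 100 CPM or more that could be centred, 411 were higher and 800 lower, with a median of -0.06. The SD of the members' log2 fold changes went from 0.20 to 0.10, against 0.28 and 0.24 for the other genes at a mean level of 100 CPM or more and 0.47 and 0.44 for all genes tested. Without Rpl10, Rps4x and Rpl39 the drop was smaller, from 0.132 to 0.099 over 74 members. Relative to its region Rpl10 no longer passed the test (log2 fold change 0.06, adjusted p = 0.128, limma). Rps4x and Rpl39 turned from lower to higher, at 0.21 (adjusted p = 4.29e-06, limma) and 0.16 (adjusted p = 0.00369, limma). Rpl36a turned from higher to lower, at -0.15 (adjusted p = 0.0177, limma). Of the 26 members called higher, 8 were still higher, 17 were not called and 1 was lower. Of the 15 called lower, 5 were still lower, 8 were not called and 2 were higher. The sign of the estimate turned for 11 of the 26 and 4 of the 15.

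Rpl7 (chr1:16101295-16104662, minus strand), an RNA-binding 60S protein, fell in a region whose median change was near 0. It had 1099, 1069 and 1107 CPM in sgControl against 856, 864 and 834 CPM in sgNDUFS4. The groups were wide apart, and the log2 fold change was -0.36 (SE 0.027, adjusted p = 2.53e-11, limma). Its neighbours had a median of -0.01, with 24 of 50 above 0, and after centring the value was -0.34 (adjusted p = 2.39e-09, limma). Rpl24, Rpl4 and Rps3 were also lower on both scales and are named here after their values were seen. Rpl24, which bridges the subunits, and Rpl4, in the wall of the exit tunnel, lay among neighbours with medians of 0.18 and 0.15, and their centred values were -0.28 and -0.22. Rpl24 and Rps3 lost their call on the deposited scale without sgControl library 2 or without sgNDUFS4 library 3.

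Among the 8 rises that held after centring, Rpl13a, Rps23 and Rpl26 had the smallest adjusted p-values. Rpl13a (chr7:45125558-45128761, minus strand), a 60S protein that can leave the ribosome to repress selected mRNAs in inflammation, had 2159.8, 2344 and 2183 CPM in sgControl against 2733, 2624 and 2615 CPM in sgNDUFS4. All 3 sgNDUFS4 libraries were above all 3 of sgControl, with a log2 fold change of 0.25 (SE 0.028, adjusted p = 3.15e-08, limma) and a centred value of 0.20 (adjusted p = 1.09e-05, limma). Rpl26 (chr11:68901583-68906989, plus strand), at the rim of the exit tunnel, had 629, 656 and 675 CPM in sgControl against 787, 814 and 807 CPM in sgNDUFS4. The groups did not overlap, and the log2 fold change was 0.30 (SE 0.03, adjusted p = 5.78e-09, limma) and 0.15 after centring (adjusted p = 0.000998, limma). The centred value of Rps23 was 0.15 (adjusted p = 0.000691, limma). Rpl18, close to Rpl13a on chromosome 7, did not pass the test on the deposited scale (log2 fold change -0.08). It was called lower with TMM scaling (-0.137, adjusted p = 0.00577, limma) and after centring (-0.142, adjusted p = 0.0055, limma).

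Rpl23a, Rps24, Rps25 and Rps10 complete the 8 rises with the smallest p-values. Rpl23a, a docking site for nascent-chain factors at the tunnel exit, went from 639 ± 40.9 to 747 ± 10.7 CPM (SD, n = 3 each). Rps24, needed for the maturation of the small subunit, went from 731 ± 4.04 to 847 ± 6.28 CPM. Rps25, which internal ribosome entry sites of several viruses require, went from 469.6 ± 14.8 to 542 ± 18.1 CPM. Rps10, a target of ubiquitination when ribosomes collide, went from 446 ± 5.02 to 506 ± 4.51 CPM. Their log2 fold changes of 0.23, 0.21, 0.21 and 0.18 became 0.08, 0.06, 0.10 and 0.10 after centring, where Rps25 and Rps10 still passed the test (adjusted p = 0.033 and 0.0239, limma) and Rpl23a and Rps24 did not (adjusted p = 0.11 and 0.138).

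The P stalk, which recruits and activates the GTPases of translation, had mixed and small differences. Rplp0, its anchor, had 2184, 2184 and 2157 CPM in sgControl against 2072, 2129.8 and 2041 CPM in sgNDUFS4, and fell by 0.06 on the log2 scale (SE 0.024, adjusted p = 0.0275, limma). Rplp1, in the dimers of the stalk's tip, went from 1103 ± 27.98 to 1178 ± 29.04 CPM (SD, n = 3 each) and rose by a log2 fold change of 0.09 (adjusted p = 0.0054, limma), a call lost with TMM scaling (adjusted p = 0.337) and with centring (adjusted p = 0.546). Rplp2 (366 ± 11.4 and 381 ± 2.76 CPM) and Rpl12 (901 ± 15.2 and 910.2 ± 16.7 CPM) did not pass the test. The call of Rplp0 was lost with centring (log2 fold change -0.01, adjusted p = 0.884), without sgControl library 1 or 2 and without sgNDUFS4 library 1 or 3.

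Rpl5 and Rpl11 form the 5S particle with 5S ribosomal RNA and bind Mdm2, the inhibitor of p53, when ribosome assembly is disturbed. Rpl11 had 808, 840.5 and 788 CPM in sgControl against 728, 738 and 705 CPM in sgNDUFS4. Its groups did not overlap, and the log2 fold change was -0.17 (SE 0.03, adjusted p = 4.18e-05, limma). Its neighbours on chromosome 4 had a median of -0.16, and the centred value was 0.00. Rpl5 stood at 810.2 ± 8.9 CPM in sgControl and 823 ± 16.6 CPM in sgNDUFS4, with a log2 fold change of 0.02 (SE 0.027, adjusted p = 0.494, limma).

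Of the 14 proteins of the 40S head, 7 rose and 1 fell, with a median of 0.07. All genes tested had a median of 0.06, with 31.8% called higher and 20.3% lower. Of the 16 members of the 40S body and platform, which hold Rps4x, Rps23 and Rps27, 5 rose and 4 fell, with a median of 0.00. Of the 10 proteins of the exit tunnel and its rim 3 rose and 2 fell, with a median of 0.04. Of the 19 members whose human counterparts are mutated in Diamond-Blackfan anaemia, 6 rose and 3 fell, with a median of 0.04. With TMM scaling the 40S head had 4 higher and 3 lower, against 24.9% and 25.8% of all genes tested. The share of rises in the head was thus smaller on that scale, as it was over all genes. The differences between these groups were not tested.

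Some members have a second gene for a closely related protein, and the ratio within a library does not depend on its scaling. Of 8 pairs considered, 4 had both genes measured: the ratios of Rpl10 to Rpl10l and of Rpl3 to Rpl3l could not be formed because Rpl10l and Rpl3l were at 0 in all 6 libraries, and Rpl39l was at 0.0995, 0.0846 and 0 CPM in sgControl and 0 in sgNDUFS4, below the 0.116 to 0.149 CPM that 3 reads amount to. These 3 genes, known mainly from testis and striated muscle, are the members that did not pass the filter. The pair of Rps4x and Rps4l was not analysed here. The log2 ratio of Rpl22, a 60S protein that also binds selected mRNAs, to Rpl22l1 was 3.08, 2.99 and 3.13 in sgControl and 2.41, 2.51 and 2.44 in sgNDUFS4. Both groups were tight and apart, with a difference of -0.61. Rpl22 itself stood at 314 ± 12.4 and 302 ± 9.42 CPM (SD, n = 3 each) and did not pass the test, while Rpl22l1 on chromosome 3 went from 37.1 ± 2.54 to 54.8 ± 0.274 CPM (log2 fold change 0.56, adjusted p = 7.03e-08, limma; 0.16 with adjusted p = 0.066 after centring).

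The log2 ratio of Rps27 to Rps27l, the latter a p53 target, was 0.15 ± 0.12 in sgControl and 0.35 ± 0.016 in sgNDUFS4 (SD, n = 3 each), a difference of 0.21. Rps27l itself, at 159.6 ± 7.32 and 167 ± 6.41 CPM, did not pass the test. The ratio of Rpl7 to Rpl7l1, which acts in ribosome assembly, was 2.45 ± 0.059 and 2.29 ± 0.051, a difference of -0.16. Rpl36a to Rpl36al differed by -0.04 with overlapping groups. In a two-sided exact permutation test the first 3 pairs reached p = 0.1 (adjusted p = 0.133 over 4 pairs), which is the smallest p that 3 libraries against 3 can give, and Rpl36a/Rpl36al had p = 0.7. Since reads were not assigned by strand and 63 of the 77 tested members have at least 1 near-identical copy among annotated genes (transcripts of at least 95% identity over at least 50% of the member's transcript; a median of 6 copies, and 56 for Rpl21), reads of such members may be shared with copies, and their levels are uncertain to that extent. The median log2 fold change was 0.04 both for the 14 members with no such copy, of which 4 rose and 3 fell, and for the 63 with one, of which 22 rose and 12 fell. Over all genes tested, 31.8% rose and 20.3% fell.

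Members also moved together between libraries of 1 group. Library 2 of sgControl had the highest of the 3 values for 52 of 77 members, and the members' median there was 0.05 above the other 2 libraries on the log2 scale. Library 2 of sgNDUFS4 was highest for 53 members, with a median of 0.04, and library 3 of sgNDUFS4 was lowest for 50, with a median of -0.03. Over all genes tested the medians of these 3 libraries lay between -0.01 and 0.02. Over 805 other genes with a transcript under 1 kb the median was 0.04 for library 2 of sgControl and 0.01 for both libraries of sgNDUFS4. The shift of the whole group of genes within a genotype was thus about as large as the median difference of 0.04 between genotypes. The coefficient of variation within a group had a median of 2.68% in sgControl and 2.18% in sgNDUFS4. It was highest for Rps27a in sgControl (14.8%, with values of 478, 591 and 644 CPM), which encodes ubiquitin fused to a 40S protein and is named here after its values were seen.

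Genes that work with the ribosome were set beside the members from lists of known function. Of 47 translation factors 3 rose and 31 fell, with a median log2 fold change of -0.11, against 0.04 for the ribosomal proteins. Of all genes tested, 31.8% were called higher and 20.3% lower. Pabpc1, the poly(A)-binding protein, went from 2625 ± 42.4 to 1928 ± 43.9 CPM (log2 fold change -0.45), Eif3d from 609 ± 4.8 to 454 ± 11.8 CPM (-0.42) and Eif2s3x, on chromosome X, from 313 ± 20.5 to 153 ± 2.56 CPM (-1.03). Eef1e1, Eif1a and Eif1 rose, by log2 fold changes of 0.39, 0.20 and 0.09. After centring 0 of 47 factors were higher and 25 were lower, with Pabpc1 at -0.33, Eif3d at -0.24 and Eif2s3x at -0.10. Centring gave 21.2% of all genes higher and 22.4% lower. For the 2035 other genes at 100 CPM or more it gave 411 higher and 800 lower, with a median of -0.06.

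Of 23 other mRNAs known to carry a TOP tract 3 rose and 14 fell, with a median of -0.11, against 31.8% and 20.3% of all genes tested. The list is not separate from the one before: 13 of the 23, and 9 of the 14 that fell, are also among the translation factors. The 10 that are not had 3 rises and 5 falls, with a median of -0.06. Eef2, the elongation factor that moves the ribosome along, went from 6735 ± 101 to 5424 ± 104 CPM (log2 fold change -0.31) and Nap1l1, a histone chaperone, from 757 ± 12.02 to 579.8 ± 7.77 CPM (-0.38). Btf3 (0.23) and Tpt1 (0.16) were among the rises. After centring 0 were higher and 12 lower, against 21.2% and 22.4% of all genes centred, and Btf3 stood at -0.17. Other genes at 100 CPM or more had 411 higher and 800 lower of 2035 there. The TOP mRNAs for ribosomal proteins had a median near that of all genes, and the other TOP mRNAs, most of them translation factors, one below it. The difference between the lists was not tested.

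**Figure D4:**
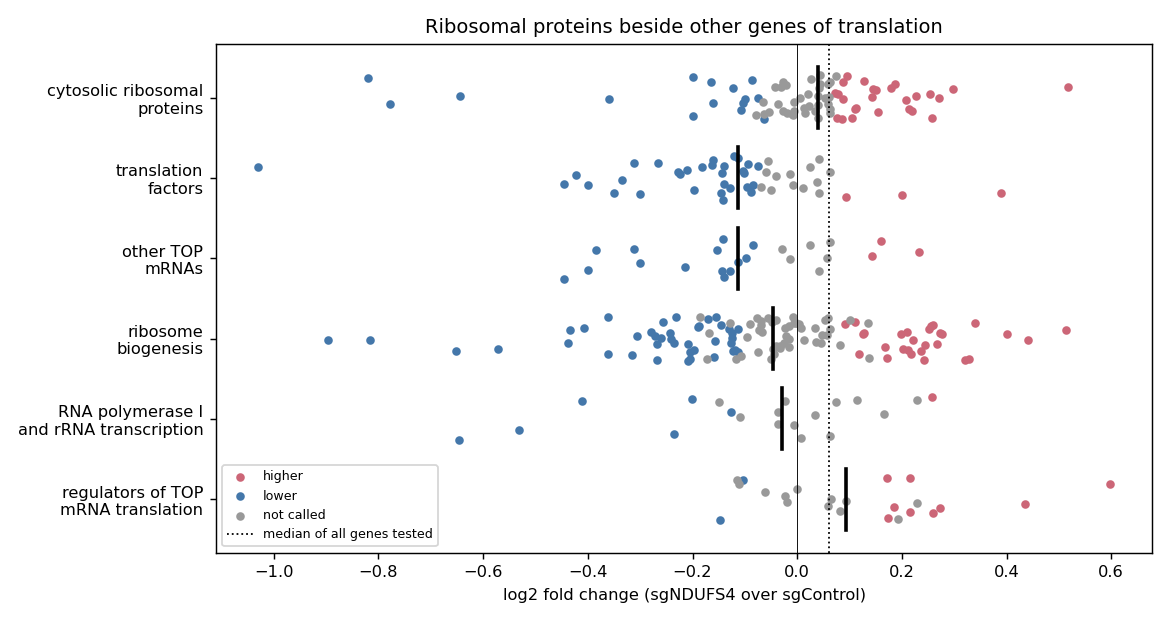
Log2 fold change (sgNDUFS4 over sgControl, horizontal axis) of each tested gene of 6 lists, coloured by its call; the vertical spread within a list only separates the points, the black bar is the list's median and the dotted line the median of all genes tested (0.06). The bar for ribosomal proteins lies at 0.04, and those for translation factors and other TOP mRNAs at -0.11.

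Of 116 genes of ribosome biogenesis 28 rose and 41 fell, with a median of -0.05, against 31.8% and 20.3% of all genes tested. Of the 2062 other genes at 100 CPM or more, 709 were higher and 700 lower. Utp14a (log2 fold change -0.90), Las1l (-0.82) and Dkc1 (-0.65), which process ribosomal RNA, all lie on chromosome X. Nmd3 (0.34), the export adaptor that Rpl10 releases from the 60S subunit, and Wdr3 (0.33), both on chromosome 3, rose, as did Rbm28 (0.25). After centring 8 of the 116 were higher and 52 lower, against 21.2% and 22.4% of all genes centred. Other genes at 100 CPM or more had 411 higher and 800 lower of 2035 there, with a median of -0.06. Utp14a then stood at -0.09, Las1l at 0.17 and Dkc1 at 0.21. The calls of Nmd3 (-0.04, adjusted p = 0.551, limma) and Wdr3 (0.03, adjusted p = 0.704, limma) were lost there, while Rbm28 stood at 0.18. Among 20 genes of RNA polymerase I and rRNA transcription 1 rose (Taf1d, 0.26) and 6 fell, among them Polr1a (-0.20), the largest subunit, and the shared subunits Polr2e (-0.65) and Polr2f (-0.53).

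Regulators of TOP mRNA translation were measured as mRNA only. Of these, 9 of 23 rose and 2 fell, with a median of 0.09, against 31.8% and 20.3% of all genes tested. Pdcd4, an inhibitor of the helicase eIF4A, went from 16.1 ± 1.95 to 24.6 ± 2.4 CPM (log2 fold change 0.60), Tia1 from 31.6 ± 2.14 to 42.9 ± 2.71 CPM (0.44) and Rps6kb1, the S6 kinase, from 74.4 ± 2.89 to 89.2 ± 3.37 CPM (0.26, and 0.00 after centring). Eef2k (-0.15) and Cnbp (-0.10) fell. With centring Pdcd4 stood at 0.65, Tia1 at 0.41, Eef2k at -0.22 and Cnbp at -0.17. Each of these kept its call, while Rps6kb1 lost its own (adjusted p = 0.969, limma). After centring 7 of the 23 were higher and 5 lower, against 21.2% and 22.4% of all genes centred. Of 17 genes of ribosome quality control and of its link to p53, 8 rose and 2 fell, against 31.8% and 20.3% of all genes tested. Ltn1 (0.38), Hbs1l (0.31) and Pelo (0.50), which act on stalled ribosomes, were among the rises. Gcn1l1 (-0.17) and Rnf10 (-0.11) fell. After centring 5 of the 17 were higher and 1 lower, against 21.2% and 22.4% of all genes centred. Ltn1 (0.27) was still higher, while Pelo (0.05, adjusted p = 0.634), Hbs1l (0.08, adjusted p = 0.209) and Rnf10 (-0.06, adjusted p = 0.226, limma) lost their calls. Of the 7 ribosomal protein genes outside the symbol rule that were listed beside the members, 3 rose, among them Rpl22l1 and Rpl36al (0.15). Rpl7l1 (-0.20) and Fau (-0.10) fell, and Rack1 and Rps27rt were not called. The shares over all genes tested were again 31.8% higher and 20.3% lower. After centring Fau stood at -0.01 and lost its call (adjusted p = 0.802, limma).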

How the data were processed

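PolyA RNA libraries (3 of sgControl, 3 of sgNDUFS4) were made from TRIzol extracts and sequenced as paired ends without strand, per the labels. The submitters' processing notes name HISAT2 and GRCm38; for the counting tool, annotation and filters the entry is "not given in the sources used here". CPM per gene, scaled to library size, were deposited by the authors. Whole reads were recovered from the CPM (99.984% to 100% of values within 0.01 of a whole read), and 9022 rows were at 0 throughout. The authors' own fold changes and p-values were not used.

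The test was limma 3.58.1 (R 4.3.3) with a mean-variance trend on log2(CPM + 0.5), two-sided, for genes whose mean reached 1 CPM, with Benjamini-Hochberg adjustment over 11063 genes and a threshold of 0.05. Fold changes use that log2 scale and so are too small for low genes. The floor of 3 reads allows for counting error only. Alternatives used other pseudocounts, filters and scalings, regional centring, a replicate block, each library left out, and edgeR 4.0.16 and DESeq2 1.42.0 on recovered reads. Gene positions came from GENCODE on GRCm38, and copies from blastn of transcripts. Named are the 8 rises and 8 falls with the smallest p-values, the 5 highest levels, members on chromosome X, the P stalk, the 5S particle and paralog pairs, and up to 3 called genes per direction of each list. The members and lists were chosen with earlier results of these data known. Scripts were tested on simulated data. A few genes are counted in the totals but not reported here by name.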

Additional observations from a re-analysis of the deposited data

How the results depend on the processing

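The count of ribosomal protein genes called higher, 26 in the report, was 13 with TMM scaling, 13 with limma without the trend, 14 with regional centring, 13 with edgeR and 12 with DESeq2, but 36 with quantile normalization. The count called lower, 15 in the report, was 25 with TMM scaling, 9 without the trend, 25 with edgeR, 26 with DESeq2 and 10 with quantile normalization. Of all genes, edgeR called 2723 higher and 2860 lower (24.6% and 25.9%), DESeq2 23.5% and 25.0%, and limma without the trend 27.5% and 17.0%. The members' median of 0.04 was -0.019 with TMM scaling, -0.012 with centring, -0.021 with edgeR, -0.021 with DESeq2 and 0.066 with quantile normalization. The summed level differed by -540.1 CPM, and by -3082 CPM with TMM scaling. Leaving out each library in turn gave 18 to 27 members higher, 12 to 17 lower, medians of 0.018 to 0.056, summed differences of -989.1 to 138.4 CPM and Ndufs4 changes of -1.77 to -1.69. Of the 26 higher calls 17, and of the 15 lower calls 12, held in all 6 of these fits. With centring the sign turned for 15 of the 41 members called: 8 that are not among the 28 genes named by rule, all called higher before, and Rpl10 (0.064), Rpl36a (-0.149), Rpl39 (0.159), Rpl8 (0.023), Rplp1 (-0.026), Rps27 (-0.067) and Rps4x (0.215). Rplp0 turned with quantile normalization (0.031), and the Rpl36a/Rpl36al ratio ran from -0.0989 to 0.011 over the fits that leave out a library, above 0 without sgControl replicate 1. The causes were not tested. Same-numbered libraries deviated together by correlations of 0.056, 0.012 and 0.097, and other pairs by -0.087 to 0.035. Each sgControl library correlated best with its own number, but sgNDUFS4 library 2 did so with sgControl library 1 (0.035). The correlations are weak and the labels name nothing that a number marks, so the libraries were not taken as paired. The replicate block gave 28 members higher and 17 lower with a median of 0.04, and changed the call of 4 of the 77, Rpl18 among them, but of none of the 28 named by rule.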
